A study of Acomys cahirinus and Mus musculus with 10 samples.

Results

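Keratins 5, 14, 15, 6a, 6b, 16 and 17 were followed across an ear punch in 2 species, the spiny mouse *A. cahirinus*, whose injured tissue the labels call regenerating, and *M. musculus*, whose injured tissue they call fibrotic. The 7 genes were chosen by name, out of 24092 *M. musculus* gene numbers in the tables, as the keratins of the basal epidermis and the keratins linked with wounding. In *A. cahirinus*, which was assembled without a genome, each keratin was given the assembly component (a cluster of contigs) with the highest BLASTN bit score to its *M. musculus* transcripts. The 7 keratins then fell on 5 components of 676820, because *Krt14*, *Krt15* and *Krt17* shared one.

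Tissue was a ring about 1 mm from the healing edge of a 4-mm punch, taken from sexually mature females before injury (D0) and on D5, D10, D15 and D20, with 3 animals per species and day by the study's account. The labels name no mutation, drug or other treatment and give neither an age nor a strain. Each table gives values for whole groups, with nothing for single animals, and therefore neither an SD nor a test of a difference between species could be given. A keratin was called changed on a day where the posterior probability of differential expression from EBSeq was at least 0.95. Levels are group means in normalized counts per library, put on the scale of each species' D5 table, and fold changes are the day over D0. The species were normalized apart, so their levels are not compared directly. Ear tissue was sequenced whole, so more cells of a type cannot be told apart from more RNA per cell.

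Keratins are the intermediate filaments of epithelial cells, built from pairs of a type I and a type II chain. Basal keratinocytes of the epidermis and the outer hair follicle use *Krt5* (type II) with *Krt14* (type I), and *Krt15* is a type I keratin of basal cells and of the hair follicle bulge. *Krt6a* and *Krt6b* (type II) with *Krt16* and *Krt17* (type I) are low in resting epidermis between the follicles and are known for their induction in keratinocytes at a wound edge, while *Krt6a*, *Krt16* and *Krt17* are also found in the hair follicle.

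The type II genes lie together on chromosome 15 of GRCm38 and the type I genes on chromosome 11, all on the minus strand. *Krt6b* spans chr15:101676023-101680287, *Krt6a* chr15:101689910-101694307 and *Krt5* chr15:101707070-101712898. *Krt15* spans chr11:100131758-100135928, *Krt14* chr11:100203162-100207548, *Krt16* chr11:100246091-100248902 and *Krt17* chr11:100256217-100261029. Close sequence decides what can be measured here. Over the open reading frames, *Krt6a* and *Krt6b* were 97.8% identical, *Krt14* and *Krt16* 86.4%, *Krt14* and *Krt17* 84.1%, and *Krt5* and *Krt6a* 81.9%. Reads were 50 bp long, and 49.9% of the 50-base words of *Krt6a* and 50.05% of those of *Krt6b* also occurred in another gene's transcript, mainly each other's. The share was 14.2% for *Krt14*, 11.997% for *Krt16*, 8.55% for *Krt5*, 4.10% for *Krt17* and 0.658% for *Krt15*. The split of counts between *Krt6a* and *Krt6b* is therefore uncertain, though these shares leave out the second read of each pair.

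A stretch of 120 coding bases is shown from the 2 *Krt6* genes and from comp463628_c13, an *A. cahirinus* component whose aligned contig matched *Krt6a* best. It was taken because it had the highest D0 mean of the components whose best gene was *Krt6a*, with its values given further on. Another such component, comp463052_c2, had a higher identity to *Krt6a* (98.0% over 345 bp, beside 88.7% over 327 bp). The *Krt6a* bases lie in exons 2 and 3 (chr15:101692785-101693072) and the *Krt6b* bases in exons 2 and 3 (chr15:101678604-101679045). Capitals mark bases that differ from *Krt6a*.
*A. cahirinus* comp463628_c13: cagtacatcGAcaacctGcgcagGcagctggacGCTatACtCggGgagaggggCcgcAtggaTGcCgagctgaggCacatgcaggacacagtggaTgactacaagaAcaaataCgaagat
*M. musculus* Krt6a: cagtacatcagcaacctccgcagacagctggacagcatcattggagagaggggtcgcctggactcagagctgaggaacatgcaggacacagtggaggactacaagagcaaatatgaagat
*M. musculus* Krt6b: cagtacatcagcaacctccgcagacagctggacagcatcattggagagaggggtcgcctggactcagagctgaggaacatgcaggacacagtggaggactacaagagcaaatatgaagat
The *M. musculus* genes had 0 differences in this stretch, so a read from it cannot by itself be given to either gene. Reads came in pairs, and the second read of a pair was not considered here. The *A. cahirinus* contig differed from both genes at 20 bases.

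The second set is shown because both type I keratins, 1 basal and 1 wound-linked, had their top alignment in the same component. It holds 120 coding bases of *Krt14* (exon 4, chr11:100204662-100204781), of *Krt17* (exon 4, chr11:100258438-100258557) and of the component that had the highest bit score for both (comp464446_c15). Capitals mark bases that differ from *Krt14*.
*A. cahirinus* comp464446_c15: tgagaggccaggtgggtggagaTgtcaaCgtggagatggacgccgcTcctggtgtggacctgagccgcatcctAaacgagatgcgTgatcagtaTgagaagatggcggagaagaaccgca
*M. musculus* Krt14: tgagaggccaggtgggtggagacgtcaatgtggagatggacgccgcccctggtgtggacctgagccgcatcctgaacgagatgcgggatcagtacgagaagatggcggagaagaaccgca
*M. musculus* Krt17: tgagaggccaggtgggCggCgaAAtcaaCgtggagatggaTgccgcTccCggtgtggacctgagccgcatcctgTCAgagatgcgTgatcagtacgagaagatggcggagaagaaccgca
The contig differed from *Krt14* at 6 bases and from *Krt17* at 11, while the *M. musculus* genes differed from each other at 12.

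In *M. musculus*, the wound-linked keratins were called higher than on D0 on each of the 4 days, and the basal pair on D5 alone. The count of members called higher was 6 of 7 on D5 (all but *Krt15*) and 4 of 7 on D10, D15 and D20 (*Krt6a*, *Krt6b*, *Krt16* and *Krt17*). Among all *M. musculus* genes the share called higher was 16.5% on D5, 15.1% on D10, 13.2% on D15 and 12.3% on D20. *Krt15* was the only member of the 7 called lower, on D5, D10 and D15, where the share of all genes called lower was 13.6%, 14.1% and 12.5%, with 11.9% on D20.

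*Krt6b* was lowest of the 7 on D0 and had the largest fold change of the 7 on D5, D10 and D15. Its mean was 32.6 on D0, 58314 on D5, 12806 on D10, 4670 on D15 and 286 on D20. It was thus 1789-fold higher on D5 and still 8.79-fold higher on D20, a log2 fold change of 10.80 and 3.14. With *Krt6a* and *Krt6b* summed, which leaves the split of their reads aside, the log2 fold change was 9.35 on D5, 7.23 on D10, 6.07 on D15 and 4.09 on D20. The D0 mean of *Krt6b* stands for about 97.8 normalized counts over 3 libraries. Taken as reads, these alone would give a counting error of 10.1%, which leaves out the uncertain split from *Krt6a*. The log2 fold change of *Krt6b* on D5 ranked 15 from the top among 15805 genes with a mean of at least 10.

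*Krt6a*, its near-identical partner, had a mean of 129 on D0, 46661 on D5, 11471 on D10, 6127 on D15 and 2463 on D20. The fold change was 363 on D5, 89.2 on D10, 47.6 on D15 and 19.2 on D20. *Krt6a* and *Krt6b* did not decline alike after the peak on D5. At D20 *Krt6b* was at 0.491% of its D5 mean and *Krt6a* at 5.28%. Per kilobase of transcript, *Krt6a* was 3.91 times *Krt6b* on D0, 0.793 times on D5, 0.887 times on D10, 1.30 times on D15 and 8.52 times on D20. *Krt6a* was therefore the higher of the pair before injury and on D20, and the lower on D5 and D10, within the limit that their reads are hard to split.

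*Krt16*, a type I partner of keratin 6, followed the pair. Its mean was 40.5 on D0, 35222 on D5, 8497 on D10, 3362 on D15 and 548 on D20. That is 869-fold over D0 on D5, 210-fold on D10, 83.0-fold on D15 and 13.5-fold on D20. It was at 1.55% of its D5 mean on D20, between *Krt6b* and *Krt6a*.

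*Krt17*, the second wound-linked type I keratin, had the highest D0 level of the 4 and the smallest rise. Its mean was 585 on D0, 5121 on D5, 1306 on D10, 2007 on D15 and 2203 on D20. The fold change was 8.75 on D5, 2.23 on D10, 3.43 on D15 and 3.77 on D20. Of the 4, *Krt17* alone had a mean on D20 above that on D10, and it was at 43.0% of its D5 mean on D20. Per kilobase, *Krt17* was 15.0 times *Krt16* on D0, 0.151 times on D5 and 4.18 times on D20.

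*Krt14*, the basal type I keratin, had a mean of 14788 on D0, 70354 on D5, 28538 on D10, 19303 on D15 and 12080 on D20. The 4.76-fold rise on D5 was called, and the 1.93-fold value on D10 was not (posterior probability 0.519). *Krt5*, its type II partner, had a mean of 15520 on D0, 27677 on D5, 18773 on D10, 16899 on D15 and 15023 on D20. Its 1.78-fold rise on D5 was called and no later day was. Per kilobase, the level of *Krt14* was 1.26 times that of *Krt5* on D0, 3.35 times on D5, 2.01 times on D10, 1.51 times on D15 and 1.06 times on D20. The basal pair was thus near 1 to 1 before injury and on D20, and type I was higher in between.

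*Krt15* moved the other way. Its mean was 3410 on D0, 791 on D5, 938 on D10, 1389 on D15 and 3237 on D20. It fell to 0.232 of D0 on D5, 0.275 on D10 and 0.407 on D15, and on D20 it was at 0.949 of D0 and not called. Its share of 50-base words found in other genes was the lowest of the 7.

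**Figure D1:**
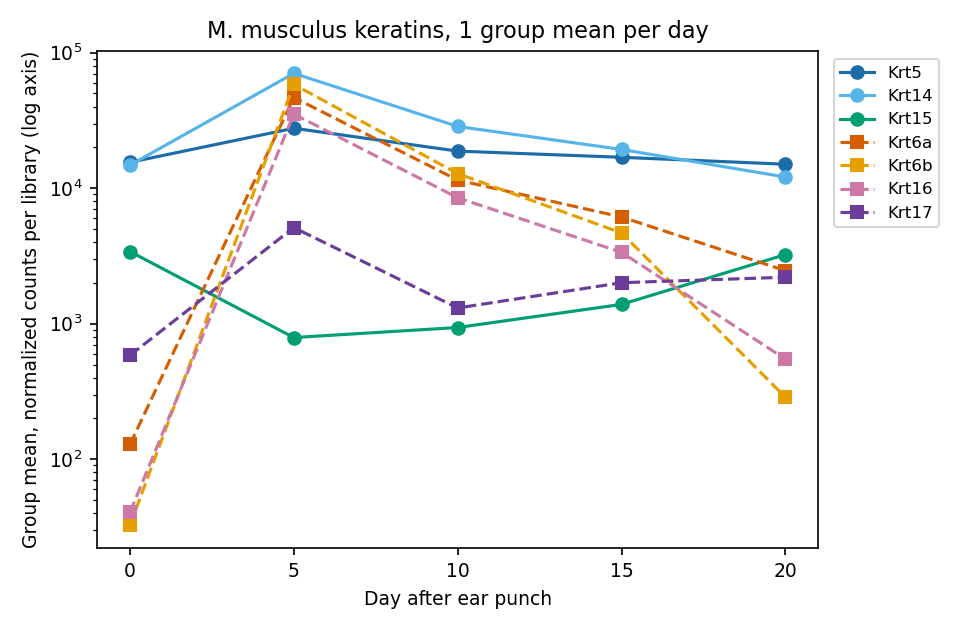
Group means of the 7 keratins in *M. musculus* (y, normalized counts per library, log axis) against the day after ear punch (x); circles and solid lines are the basal keratins, squares and dashed lines the wound-linked ones, and each point is 1 group with no error bar because no value per animal was used. *Krt6a*, *Krt6b* and *Krt16* go from 32.6 to 129 on D0 to between 35222 and 58314 on D5 and down again, *Krt17* stays between 1306 and 2203 from D10 on, and *Krt15* is lowest on D5.

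Relative to the basal pair, the wound-linked set went from a small share to the larger one on D5 and then declined, to a ratio on D20 still above that on D0. The summed means of *Krt6a*, *Krt6b*, *Krt16* and *Krt17* were 0.0260 of those of *Krt5* and *Krt14* on D0, 1.48 on D5, 0.720 on D10, 0.447 on D15 and 0.203 on D20. Per kilobase of transcript the ratio was 0.0303, 1.32, 0.663, 0.428 and 0.214 at the same days. Within the wound-linked set, the type I chains (*Krt16* and *Krt17*) were 5.78 times the type II chains (*Krt6a* and *Krt6b*) per kilobase on D0, 0.553 times on D5, 0.582 times on D10, 0.723 times on D15 and 1.48 times on D20. The 7 keratins together took 0.447% of all normalized counts on D0, 3.05% on D5, 1.07% on D10, 0.716% on D15 and 0.482% on D20.

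Hair follicle genes moved in *M. musculus* at the later days, and the follicle is a known site of *Krt6a*, *Krt15*, *Krt16* and *Krt17*. Of 20 hair shaft and sheath genes, 18 were measured, and their summed mean was 575 on D0, 415 on D5, 7673 on D10, 24829 on D15 and 36286 on D20. The number called higher was 0 on D5, 13 on D10, 14 on D15 and 15 on D20, and the number called lower was 4, 1, 0 and 0, beside the shares of all genes given above. At D20 the highest was *Krt33b*, a hair shaft keratin, with a mean of 0.916 on D0 and 959 on D20, and the lowest was *Msx2*, a transcription factor of the follicle, with 104 and 110. The median log2 fold change of the list was -0.79 on D5, 5.22 on D10, 6.66 on D15 and 7.15 on D20, against medians of 0.01 for all genes with a mean of at least 10 on each day. *Krt17* and *Krt15* were each higher on D20 than on D10, beside this rise, while *Krt6a*, *Krt6b* and *Krt16* were lower. The part of hair follicles in these levels was not tested.

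**Figure D2:**
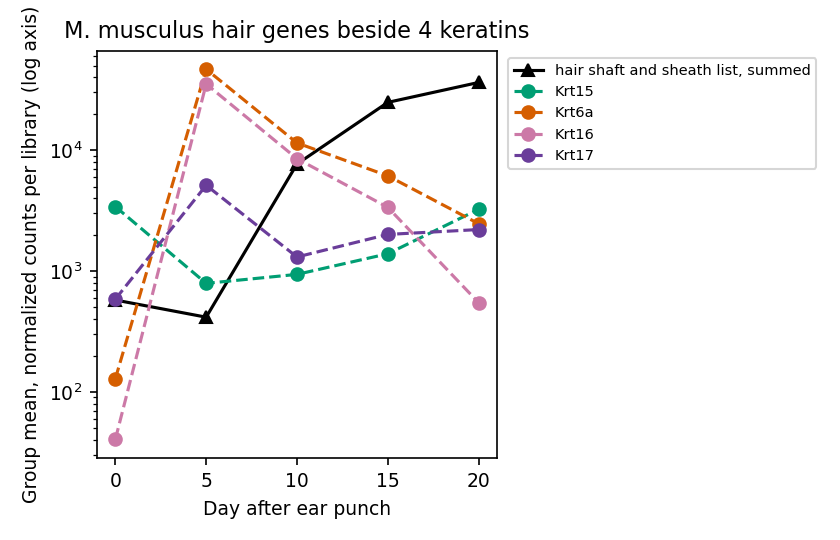
Summed group mean of the 18 measured hair shaft and sheath genes (black triangles) and group means of *Krt15*, *Krt6a*, *Krt16* and *Krt17* (circles) in *M. musculus*, in normalized counts per library on a log axis, against the day after ear punch. The hair genes go from 415 on D5 to 36286 on D20, while *Krt16* goes from 35222 to 548 over the same days.

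In *A. cahirinus*, the 4 components with the highest D0 levels held more than 1 keratin. BLASTN hits to the 7 keratins came from 23 components, and each contig was assigned to the gene with its highest bit score. The mixed type I component, comp464446_c15, had 31 contigs, of which 11 matched *Krt15* best, 10 *Krt14*, 7 *Krt16*, 2 *Krt17* and 1 *Krt13*. It was the top component for *Krt15* (89.9% identity over 750 bp), *Krt14* (94.8% over 485 bp) and *Krt17* (90.4% over 470 bp), so those 3 members carried 1 and the same value.

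The mixed type II component, comp463052_c5, was the top component for *Krt5* (93.5% over 658 bp). Of its 22 contigs, 3 matched *Krt5* best, 7 *Krt6a* and 12 *Krt78*, a type II keratin. The top component for *Krt6b*, comp463628_c0 (91.5% over 749 bp), was mostly *Krt1*, the suprabasal type II keratin, and its best *Krt1* contig was 100% identical to *M. musculus* over 517 bp. Of its 65 contigs with a hit, 41 matched *Krt1*, 21 *Krt6a* and 3 *Krt2*, the last a late differentiation keratin.

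For *Krt6a* and *Krt16* the top component was a contig identical to *M. musculus*, and both were set apart. The *Krt6a* contig (comp209454_c0, 100% over 582 bp) had a D0 mean of 8.15 and the *Krt16* contig (comp464446_c6, 100% over 244 bp) one of 2.56, and neither was called on a day. Across 12323 ortholog pairs aligned over at least 200 bp the median identity was 91.3%, and 0.414% of pairs reached 99%. With these contigs left out, *Krt6a* went to the mixed type II component (89.6% over 862 bp) and *Krt16* to comp458145_c27 (98.3% over 239 bp).

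**Figure D3:**
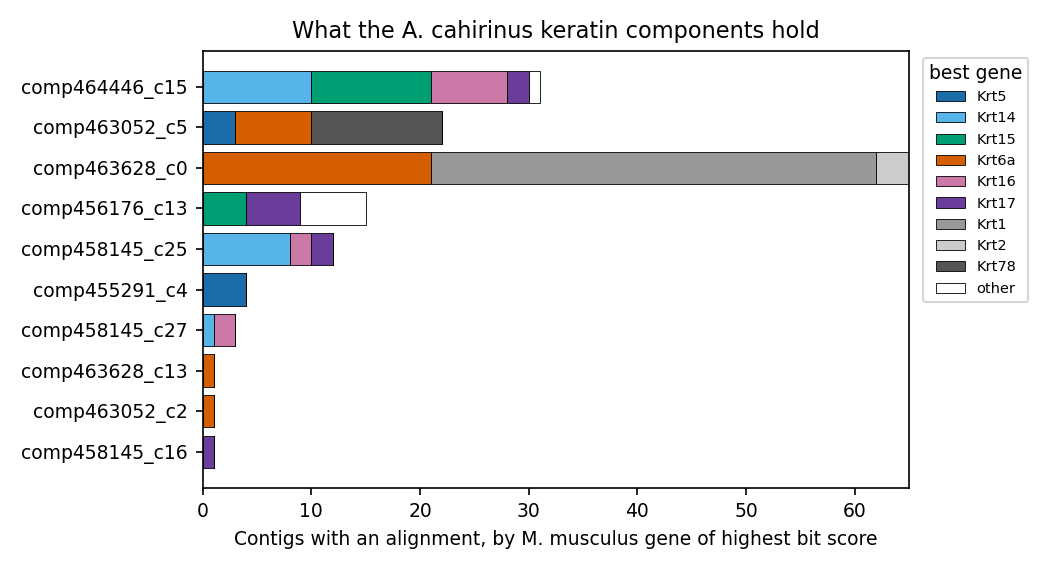
Number of contigs (x) in 10 *A. cahirinus* components (y) that had a BLASTN alignment, coloured by the *M. musculus* gene with the highest bit score. The 3 components that were top hits for *Krt5*, *Krt14*, *Krt15*, *Krt17* and *Krt6b* each mix 3 or more keratins, whereas comp463628_c13, comp463052_c2, comp455291_c4 and comp458145_c16 match 1 keratin each.

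By top bit score, 5 of 7 members were called higher on D5 (*Krt5*, *Krt14*, *Krt15*, *Krt6b* and *Krt17*) and 2 of 7 (*Krt5* and *Krt6b*) on D10, D15 and D20. *Krt14*, *Krt15* and *Krt17*, through their shared component, were called lower on D15 and D20. Over all components the share called higher was 1.78% on D5, 1.28% on D10, 1.33% on D15 and 0.948% on D20, and the share called lower 0.978%, 0.880%, 1.11% and 0.900%. Among components with a mean of at least 10, the share called higher was 7.52%, 5.06%, 5.13% and 4.02%, and the share called lower 4.09%, 3.37%, 4.11% and 3.86%. With the identical contigs left out, *Krt6a* and *Krt16* were called higher on all 4 days too, and the count was 7 of 7 on D5 and 4 of 7 on each later day. In this count *Krt6a* took the component of *Krt5*, and *Krt14*, *Krt15* and *Krt17* still shared theirs, so the 7 were not measured separately.

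The mixed type I component had a mean of 8874 on D0, 21763 on D5, 7548 on D10, 5727 on D15 and 5309 on D20. It rose 2.45-fold on D5, was at 0.851 of D0 and not called on D10, and fell to 0.645 of D0 on D15 and 0.598 on D20. A mixture of *Krt14*, *Krt15*, *Krt16*, *Krt17* and a *Krt13* contig stands behind these values, so they give no course of any 1 of them. The mixed type II component had a mean of 7075 on D0, 48118 on D5, 15392 on D10, 11635 on D15 and 10482 on D20. It was called higher than on D0 on every day, at 6.80-fold on D5, 2.18-fold on D10, 1.64-fold on D15 and 1.48-fold on D20. The *Krt1* component had a mean of 26856 on D0, 92026 on D5, 59538 on D10, 40270 on D15 and 40133 on D20, and was called higher on every day.

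Smaller components matched fewer keratins and came nearer to 1 gene. The component here called the *Krt6* component, comp463628_c13, matched *Krt6a* (88.7% over 327 bp) and *Krt6b* (87.5% over 327 bp), with the sequence printed above. It also aligned to *Krt5* (83.4% over 199 bp). Its mean was 118 on D0, 7502 on D5, 1365 on D10, 661 on D15 and 463 on D20. It was at 63.8 times D0 on D5, 11.6 times on D10, 5.62 times on D15 and 3.93 times on D20. At D20 it was at 6.17% of its D5 mean, beside 5.28% for *Krt6a* and 0.491% for *Krt6b* in *M. musculus*. A further *Krt6a* component, comp463052_c2 (98.0% over 345 bp), had a mean of 14.1 on D0, 273 on D5, 52.6 on D10, 24.4 on D15 and 20.5 on D20, and was called on D5 alone.

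The *Krt16* component, comp458145_c27, held 2 contigs that matched *Krt16* best and 1 that matched *Krt14*. Its mean was 524 on D0, 6991 on D5, 2163 on D10, 1468 on D15 and 1284 on D20. It was at 13.3 times D0 on D5, 4.13 times on D10, 2.80 times on D15 and 2.45 times on D20. Its identity to *Krt16*, 98.3%, is above that of most pairs, of which 0.974% reached 97%, and it was kept because it was under 99%. Its D0 level may include reads of *Krt14*.

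Components nearest to the basal keratins rose less on D5 than the *Krt6* and *Krt16* components. The *Krt14* component, comp458145_c25, with 8 of 12 contigs matching *Krt14* best, 2 *Krt16* and 2 *Krt17*, had a mean of 2045 on D0, 9223 on D5, 3047 on D10, 2161 on D15 and 2090 on D20. It was called on D5 alone, at 4.51-fold. A component here called a *Krt5* component, comp455291_c4, aligned over 120 bp (87.5%), while its longest contig had 2068 bp. Its name thus rests on a short match. Its mean was 1282 on D0, 2897 on D5, 2402 on D10, 1976 on D15 and 1965 on D20. It was called higher on every day, by 2.26-fold on D5 and 1.53-fold on D20. A *Krt17* component, comp458145_c16, aligned over 67 bp (97.01%) of its 619-bp contig. Its mean was 14.8 on D0, 50.01 on D5, 12.5 on D10, 5.62 on D15 and 12.1 on D20. It was called higher on D5, at 3.37-fold, and lower on D15. With so short a match and low means, it is not set against the *Krt14* component. A second large type I component, comp456176_c13, was no keratin's top component. Of its 15 contigs with a hit, 5 matched *Krt17* best, 4 *Krt15*, 4 *Nrd1*, 1 *Krt10* and 1 *Krt13*, so it also mixes a gene that is no keratin. Its mean was 8232 on D0, 11821 on D5, 6488 on D10, 4663 on D15 and 5045 on D20. It rose 1.44-fold on D5, was not called on D10, and fell to 0.566 of D0 on D15 and 0.613 on D20. Apart from the short *Krt17* component, every component that held *Krt17* or *Krt15* contigs held contigs of other genes too.

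The low means of the *A. cahirinus* D15 group fell in the steps of 2 libraries, where each of the other 9 groups showed 3. Whether the D15 values of that species rest on fewer animals was not tested.

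**Figure D4:**
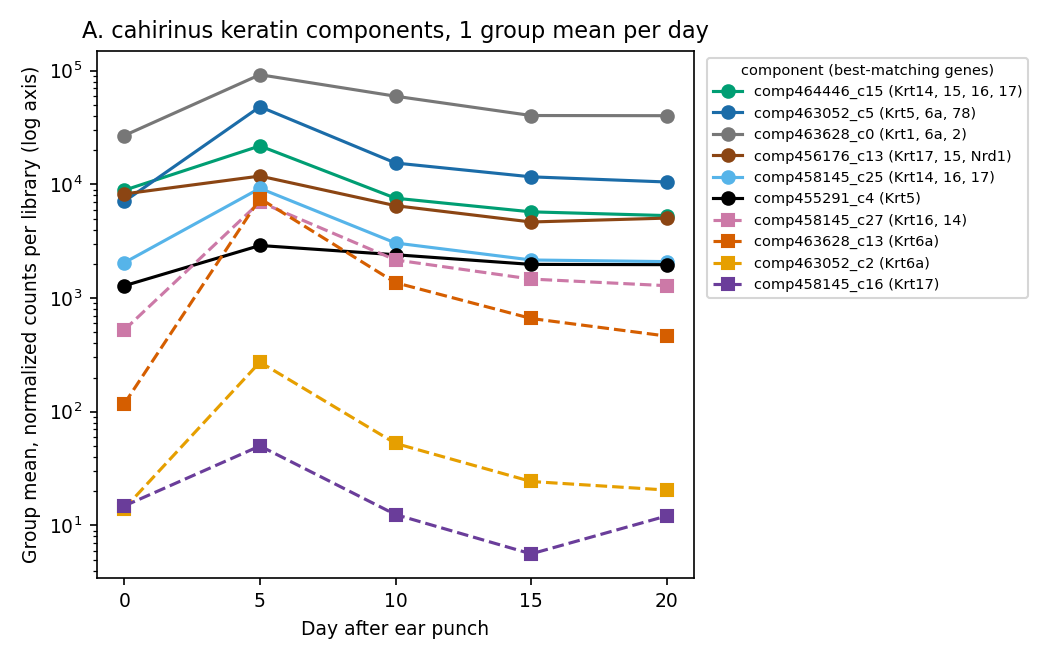
Group means of 10 *A. cahirinus* keratin components (y, normalized counts per library, log axis) against the day after ear punch (x), with the genes that their contigs match best in the legend; circles and solid lines are mixed or basal components, squares and dashed lines those nearest to a wound-linked keratin, and no error bar can be given. All 10 are highest on D5, and comp463628_c13 has the largest fold rise of the 10, from 118 to 7502.

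For the species to be set side by side, the keratins were summed by type, a comparison chosen after seeing the data. The *M. musculus* genes enter at their full level, which need not be the proportion in which a component mixes them, and the *Krt13* contig of comp464446_c15 has no counterpart. The type I sum held *Krt14*, *Krt15*, *Krt16* and *Krt17* in *M. musculus* and 4 matching components in *A. cahirinus* (comp464446_c15, comp458145_c25, comp458145_c27 and comp458145_c16). In *M. musculus* its log2 fold change from D5 to D20 was 2.57, 1.06, 0.47 and -0.06. The *A. cahirinus* values were 1.73, 0.16, -0.29 and -0.40, lower on each of the 4 days. With comp456176_c13 added to the *A. cahirinus* sum they were 1.34, -0.03, -0.49 and -0.52, with no *M. musculus* gene added to match its *Krt10*, *Krt13* and *Nrd1* contigs, so these are not set against *M. musculus*. The type II sum held *Krt5*, *Krt6a*, *Krt6b* and *Krt78* in *M. musculus* and 4 components in *A. cahirinus* (comp463052_c5, comp463052_c2, comp463628_c13 and comp455291_c4). Here *M. musculus* gave 3.04, 1.44, 0.81 and 0.16, beside 2.79, 1.18, 0.75 and 0.61 for *A. cahirinus*. The *A. cahirinus* type II sum was thus below the other by -0.25, -0.26 and -0.06 on the first 3 days and above it by 0.44 on D20. With comp463628_c0 added in *A. cahirinus*, and *Krt1*, *Krt2*, *Krt75* and *Krt76* in *M. musculus*, *A. cahirinus* was above by 0.16, 0.18, 0.08 and 0.68. The direction on D5, D10 and D15 thus changed when that component and these 4 *M. musculus* genes were added. The genes added need not match the component. *Krt2* gave 44696 of the 63012 counts of that *M. musculus* sum on D0 and fell to 20769 on D5. Only 3 of the 65 contigs with a hit matched *Krt2* best, and none *Krt75* or *Krt76*. *Krt1*, best for 41 contigs, went from 1774 to 84089. A sum with *Krt1* alone added was not made. None of the differences between the sums could be tested.

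Gene by gene, the log2 fold change of *A. cahirinus* less that of *M. musculus*, averaged over 4 days, was 0.997 for *Krt5*, -0.90 for *Krt14*, 1.26 for *Krt15*, -6.41 for *Krt6b* and -2.07 for *Krt17*, each from a mixed component. For *Krt6a* it was -4.91 with the mixed type II component and -2.70 with the *Krt6* component, and for *Krt16* it was -4.76 with the *Krt16* component. The contigs identical to *M. musculus* gave -8.06 for *Krt6a* and -8.74 for *Krt16*, but they had D0 means of 8.15 and 2.56 and no call, and whether they carry *A. cahirinus* reads was not tested. The size of the difference thus followed the choice of component.

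**Figure D5:**
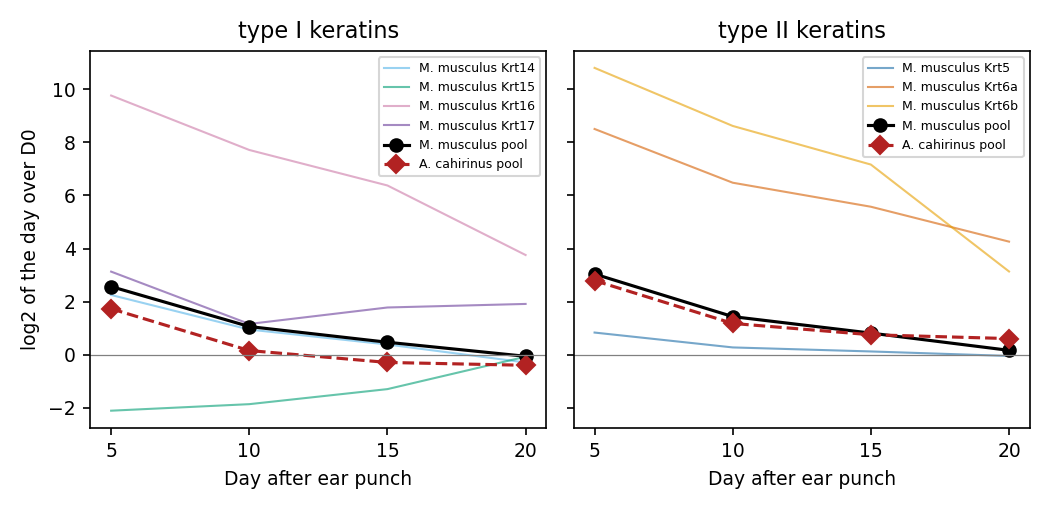
log2 fold change of the day over D0 for type I keratins (left) and type II keratins (right) against the day after ear punch; thin lines are single *M. musculus* genes, black circles the sum over the *M. musculus* genes and red diamonds the sum over the matching *A. cahirinus* components. The *A. cahirinus* type I sum is below the *M. musculus* one on each day, and the *A. cahirinus* type II sum is below it on D5, D10 and D15 and above it on D20. With comp463628_c0 in *A. cahirinus* and *Krt1*, *Krt2*, *Krt75* and *Krt76* in *M. musculus* added, which is not drawn, the *A. cahirinus* type II sum is above on each day. On D0 *Krt2* gave 44696 of the 63012 counts of that *M. musculus* sum, while 3 of the 65 contigs with a hit matched it best.

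Within *A. cahirinus*, the *Krt6* component was 0.0166 of the mixed type II component on D0, 0.156 on D5, 0.0887 on D10, 0.0568 on D15 and 0.0441 on D20. The *Krt16* component was 0.0591 of the mixed type I component on D0, 0.321 on D5, 0.287 on D10, 0.256 on D15 and 0.242 on D20. The components nearest to wound-linked keratins thus gained on the mixed ones on D5 in this species too, and the *Krt16* component held its share longer than the *Krt6* component.

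Other genes of the basal keratinocyte were read by lists, each with its *A. cahirinus* component by reciprocal best hit. Of 12 genes that anchor basal cells to the basement membrane or set their identity, 9 were called higher and 1 lower on D5 in *A. cahirinus*, with a median log2 fold change of 0.90. In *M. musculus* 6 were higher and 3 lower, with a median of 0.32. The lowest in *A. cahirinus* on D5 was *Dst*, a plakin that ties keratin to hemidesmosomes, with a mean of 2275 on D0 and 1474 on D5. In *M. musculus* the median farthest from 0 was on D15, at -0.46, with 1 higher and 6 lower, from *Itgb1*, an integrin chain, at 0.89, to *Trp63*, the epidermal transcription factor, at -1.20. From D5 to D20 the *A. cahirinus* list had 9, 5, 5 and 3 genes called higher, and the *M. musculus* list 6, 3, 1 and 2. Over all features the shares called higher on those days were 1.78%, 1.28%, 1.33% and 0.948% in *A. cahirinus* (7.52%, 5.06%, 5.13% and 4.02% with a mean of at least 10) and 16.5%, 15.1%, 13.2% and 12.3% in *M. musculus*, so the *M. musculus* counts higher of 1 and 2 of 12 were near the share of all genes. The number called lower on those days was 3, 6, 6 and 6 in *M. musculus*, where 13.6%, 14.1%, 12.5% and 11.9% of all genes were lower. It was 1, 2, 3 and 4 in *A. cahirinus*, where 4.09%, 3.37%, 4.11% and 3.86% of components with a mean of at least 10 were lower. These shares are the base for the lists that follow, and since they differ between the species, counts called are not compared between them.

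Desmosomes hold keratin filaments at the cell border. Of 9 desmosome genes, 8 were called higher on D5 in *A. cahirinus* and 0 lower (median log2 fold change 0.99), and 6 were higher and 1 lower in *M. musculus* (median 0.92). Over all features with a mean of at least 10 in *A. cahirinus*, 7.52% were called higher on that day, and over all *M. musculus* genes 16.5% higher and 13.6% lower. The highest on D5 was *Dsg3*, a cadherin of basal cells, in *A. cahirinus* (513 to 2438) and *Dsc2*, another desmosomal cadherin, in *M. musculus* (75.9 to 1525). The lowest in *M. musculus* was *Dsg2* (399 to 278), and in *A. cahirinus* it was *Perp* (19.3 to 1.94, not called), whose component was 99.9% identical to *M. musculus*.

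Of 12 injury-linked keratinocyte genes, 10 were measured in *M. musculus*, with 8 higher and 0 lower on D5 and a median log2 fold change of 2.68. In *A. cahirinus* 8 were measured, with 6 higher and 1 lower and a median of 2.03, or 2.81 without *S100a9*, whose contig was identical to *M. musculus*. The medians are over unlike sets of genes and are not compared between the species. On that day 16.5% of all *M. musculus* genes, and 7.52% of *A. cahirinus* components with a mean of at least 10, were called higher. The highest was *Sprr1b*, a cornified envelope precursor, in *A. cahirinus* (13.6 to 1931) and *S100a9*, an antimicrobial protein that neutrophils also make, in *M. musculus* (5.11 to 2368). The lowest in *M. musculus* was *Egfr*, the receptor of the EGF family ligands, at 1410 and 1349 and not called. In *A. cahirinus* it was *S100a9*, at 2.96 and 2.11 and not called, and the gene called lower was *Egfr*, at 1585 and 1363.

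Of 12 suprabasal and simple keratins, 10 were measured in *M. musculus*, with 2 higher and 4 lower on D5 and a median of -0.66. The 2 of 10 called higher was near the 16.5% of all genes called higher, and 13.6% of all genes were called lower. The highest was *Krt1* (1774 to 84089) and the lowest *Krt19*, a keratin of simple epithelia and the follicle bulge (10.9 to 1.75, not called). In *A. cahirinus* 8 were measured, and the median farthest from 0 was -0.85 on D20, with 2 higher and 1 lower. These 2 were *Krt1* and *Krt78*, whose components are those of *Krt6b* and *Krt5* above and so are no separate measurement. The lowest was *Krt2* (5.47 to 0.582, not called), from a component 100% identical to *M. musculus*. The median rests in part on other uncalled genes with low means too. The summed mean of the list, which holds the components of *Krt1* and *Krt78*, was 50288 on D0 and 66454 on D20.

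Markers of other tissue moved too. The dermal fibroblast list, with 3 of 4 genes measured, was called higher for 0 of 3 on D5 and 3 of 3 on the later days in *A. cahirinus* and for 3 of 3 on every day in *M. musculus*. Leukocyte genes were called higher for 3 of 3 on D5 in both species. Skeletal muscle genes were called lower on every day in both species, for 1 of 1 measured in *A. cahirinus* and 2 of 2 in *M. musculus*. Of 6 interfollicular differentiation genes measured in each species, 2 were higher and 0 lower on D5 in *A. cahirinus*, and 4 higher and 1 lower in *M. musculus*, a list that shares 3 genes with the keratins of the paragraph before. The best contigs of the components of *Krt1*, *Krt2* and *Lor*, a cornified envelope protein, were at least 99% identical to *M. musculus* (for *Krt1*, 1 contig of the component that also held the highest bit score for *Krt6b*), and without these genes 3 genes were left in *A. cahirinus*, with 1 higher and 0 lower. On D5, 7.52% of *A. cahirinus* components with a mean of at least 10 and 16.5% of *M. musculus* genes were called higher. In *A. cahirinus* the hair list had 11 genes measured, with 0 higher and 3 lower on D5, where 4.09% of components with a mean of at least 10 were lower, and 2 higher and 1 lower on D20, where 4.02% were higher and 3.86% lower. The median log2 fold change of this list was -0.73 on D5, -1.14 on D10, -0.15 on D15 and 0.89 on D20. The part of tissue make-up in the keratin values was not tested.

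The genes with a course most like *Krt17* and *Krt5* were sought among 11285 ortholog pairs whose means reached 10 in both, by Euclidean distance over the 8 log2 fold changes. Nearest to *Krt17* were *Klk10* (distance 1.27), *Ccl12* (1.55), *Tspan4* (1.62), *Cd4* (1.64) and *Ccn5* (1.65). Nearest to *Krt5* were *Cd80* (0.56), *Fmnl1* (0.56), *Mt1* (0.63), *Pik3r5* (0.69) and *Tmem37* (0.71). The *A. cahirinus* part of each distance comes from a mixed component. Over the 4 *M. musculus* values alone and 14208 genes, *Klk10*, a secreted kallikrein, was again nearest to *Krt17* (0.44), *Glrx* to *Krt14* (0.23), *Ston2* to *Krt5* (0.06) and *Acvr1c* to *Krt15* (0.46). *Pla2g4d* was nearest to *Krt6a* (1.002), followed by *Sprr1b* (1.04) and *Lce3d* (1.11), the last 2 from the cornified envelope. Among genes outside the followed keratins, *Rptn*, a matrix protein of the cornifying cell, was nearest to *Krt16* (1.22), and *BC100530* to *Krt6b* (1.92). The followed keratins were left out of these searches, so distances between them were not ranked, and a partner such as *Krt16* may lie nearer to *Krt6b*.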

How the data were processed

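The authors sequenced ear RNA (strand-specific, ribosomal RNA reduced, 50-bp paired ends), assembled *A. cahirinus* with Trinity, mapped reads with RSEM and Bowtie (RSEM and mm10 are also named in the submitters' processing notes) and compared each day with D0 by EBSeq. The deposited tables hold the authors' comparison columns, which are 2 versions of the fold change (the ratio D0/day) and a posterior probability, a score between 0 and 1. They were used because no values per animal were. The authors' BLASTN output, also deposited, lists for each hit the percent identity, the aligned length and a bit score.

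Group means were recovered from the 2 fold changes, which differ by a constant added to both means (0.347 to 0.385 per table), and were tested on simulated data. Each table was then scaled to the D5 table of its species by the median D0 ratio (0.976 to 1.22). The ratio was taken over features with higher D0 means, between 9247 and 17664 per table. Among these, D0 means then differed by at most 0.0039 on the log2 scale, and features with lower means were not checked. Group means summed to between 14454829 and 18203633 for *A. cahirinus*, and between 7330084 and 9409080 for *M. musculus*. Counting errors assume 3 libraries and take normalized counts as reads.

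*M. musculus* gene numbers were named by placing them along the reference order between 1992 known numbers, after matching transcripts to GENCODE M21 (GRCm38, the authors' mm10) with minimap2. Held-out numbers were right in 98.7% of 1660 at the margin of 5 used here and in 954 of 954 at a margin of 10. The 7 keratins had margins of 11 to 58. Ortholog pairs (12756) were reciprocal best bit scores. The keratins and lists were chosen with earlier results of these data known, so no list is a test. Named genes were the 7 keratins, the highest and lowest member of each list on the day with its largest median, and the 5 nearest genes to *Krt17* and *Krt5*. The value of 1 list member is not reported here. The distances over *M. musculus* alone and the sums were added after the data were examined.

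Alternatives were a threshold of 0.99, a minimum mean of 10, a minimum absolute log2 change of 1, other components, summed components, the second fold change, a pseudocount of 1, centring on the median gene, values relative to *Krt5* and *Krt14*, and *Krt6a* and *Krt6b* summed. A value was taken as moved at 1.5 times. Python 3.11.15, NumPy 2.4.6, pandas 2.3.3 and Biopython 1.88 were used.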

Additional observations from a re-analysis of the deposited data

How the results depend on the processing

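Calls in *M. musculus* stayed within 1.5 times (18 higher and 3 lower of 28 keratin days) under a threshold of 0.99, a least mean of 10 and a least log2 fold change of 1. In *A. cahirinus*, 11 keratin days were higher and 6 lower. The count higher was 7 with a least log2 fold change of 1 and 19 with the top component under 99% identity, and the count lower was 0 with that least fold and 3 with the component whose own best hit was the keratin. Shared components make these counts dependent.

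The component decided the direction in places. For *Krt6a* and *Krt16* the sign changed on all 4 days, on D5 from -1.89 to 5.996 and from -1.74 to 3.74 with the component by own best hit, where the first values are those of contigs identical to *M. musculus* and were not called. With components by own best hit, or summed over them, the *A. cahirinus* log2 fold change of *Krt14* was 0.079 at D15 and 0.031 at D20, and that of *Krt6b*, then a contig identical to *M. musculus*, was -1.08, -1.97, -2.56 and -1.40 at D5 to D20. Relative to *Krt5* and *Krt14*, the D5 value was -0.74 for *Krt15* and *Krt17*, which is no test because both share their component with *Krt14*, so that the component of *Krt5* alone set the sign. For *Krt6b* it was -0.25. In *M. musculus* the same scaling moved D5 and D10 values by over 1.5 times with no called sign changed, for *Krt17* to 1.59 and 0.55, *Krt15* to -3.65 and -2.47, *Krt6a* to 6.96 and 5.87, *Krt6b* to 9.26 and 8.01, and *Krt16* to 8.22 and 7.10. The mean difference between species moved to -0.11 for *Krt14* with summed components or own best hit, to -2.90 (summed), -4.91 (under 99% identity) and -2.70 (own best hit) for *Krt6a*, to -9.18 for *Krt6b* (summed or own best hit), and for *Krt16* to -7.95 (pseudocount of 1), -4.77 (summed) and -4.76 (under 99% identity or own best hit). No sign of a single keratin's mean difference between species reversed under these. With *Krt6a* and *Krt6b* summed, the value in *M. musculus* moved by over 1.5 times for *Krt6b* on all 4 days and for *Krt6a* on D5 and D10. The second fold change and centring moved no value by 1.5 times.

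The match by translated sequence was not run, because no protein table was used here. No paired analysis was possible because the tables hold 1 value per group, and for the same reason no replicate was left out. Low D0 means limit the fold changes of *Krt6b* and *Krt16* in *M. musculus*, with counting errors of 10.1% and 9.07%.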
